A study of Mus musculus with 2 samples.

Results

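Among 5208 embryoid cells that passed the quality filters, 121 met the rule for a fibrillar collagen cell. Their share was 2.32% (exact Clopper-Pearson 95% interval 1.93% to 2.77%). A cell was taken as a fibrillar collagen cell when the unique molecular identifiers (UMIs, each standing for 1 captured RNA molecule) of Col1a1, Col1a2, Col3a1 and Postn summed to at least 5 and those of the pluripotency genes Nanog, Tdgf1, Sox2, Fgf4, Utf1 and Trh summed to under 5. The 121 cells were set against 248 "Vim cells", which had at least 5 UMIs of the intermediate filament gene Vim and a collagen sum under 5, and against the 4839 remaining embryoid cells. The cells were thus chosen by their own measured UMIs, and the levels of these 4 collagen-rule genes, of the pluripotency genes and of Vim describe how the groups were drawn and are not findings.

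The study compared 2 mouse samples by single-cell sequencing of polyadenylated RNA on the BD Rhapsody platform, 1 library each from 6000 cells. The embryoids were made from embryonic stem (ES) cells of Lifeact-RFPRuby mice, which carry a red fluorescent actin label, and from XTE cells reprogrammed from Gata6-H2B:Venus ES cells, which carry a fluorescent histone at the Gata6 locus. The ES cells had been kept in serum medium with Lif, 0.4 µM PD0325901 and 3 µM CHIR99021. The XTE cells had been kept in N2B27 medium with 3 µM CHIR99021, Activin at 20 ng/ml, BMP4 at 50 ng/ml, heparin at 1 µg/ml and Fgf4 at 25 ng/ml, on Fibronectin. For each preparation 10000 ES cells and 50000 to 80000 XTE cells spent 48 h in aggregation wells and 48 h in repellent plates. The other library came from whole B6C3F1 blastocysts of embryonic day 4.5. The labels name no other cell type in the embryoids, and they do not say from which of the 2 lines any single cell came.

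Fibrillar collagens I and III are secreted by mesenchymal cells, where procollagen chains are hydroxylated, folded with the help of the chaperone Serpinh1, trimmed outside the cell and joined into fibres. Epithelial endoderm, by contrast, lays down sheet-like type IV collagen and laminin. Mesenchymal cells arise when epithelial cells lose their junctions under transcription factors such as Twist1, Snai1 and Zeb1, and the first of them in the mouse embryo appear after implantation, in the primitive streak and in the extraembryonic mesoderm that lines the yolk sac and amnion.

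Counts over the whole library set the limits of what follows. The embryoid library held 28923930 UMIs over 5546 barcodes. The blastocyst library had 1288 barcodes with 11047555 UMIs, and 9 barcodes occurred in both libraries, none of them a fibrillar collagen cell. The fibrillar collagen cells had a median of 4145 UMIs (1285 to 14521) and 571635 UMIs together, the Vim cells a median of 4491.5 UMIs and 1268209 together, and the remaining cells a median of 4883 UMIs and 26658223 together. Median mitochondrial shares were 5.66%, 6.07% and 6.63%. Levels are given as counts per 1e6 UMIs of the summed profile of a group (CPM), with exact Poisson 95% intervals, and ratios as log2 ratios after adding 1 CPM to both groups. The exact interval of a ratio is that of the raw counts without the added CPM, so that the ratio of a low gene can lie outside it. All intervals and limits cover counting error only, because each group is 1 sample and cells are not replicates. No test between groups is possible, and no p-value is given.

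No blastocyst cell met the same rule. Of 1019 filtered blastocyst cells, 0 qualified, which allows a share of up to 0.294%, and the highest collagen sum there was 2 UMIs. Collagen UMIs were spread thinly outside the chosen embryoid cells as well, since 77 Vim cells had 1 to 4 of them and only 96 of the 4839 remaining cells had any. None of the 338 embryoid barcodes that failed a filter had a collagen sum of 5 or more, and 2 cells with such a sum were left out by the pluripotency limit.

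The boundary of the group was a chosen line in a continuous range. With the pluripotency limit in place, 20 cells had a collagen sum of 3, 22 had a sum of 4, 8 had a sum of 5 and 15 had a sum of 6. The transcription factor gene Twist1, which the rule did not use, was seen in 17 of the cells with a sum of 3, in 20 of those with a sum of 4, in 7 of those with a sum of 5 and in 12 of those with a sum of 6. Cells just outside the line therefore carried Twist1 about as often as cells just inside it. Of the 121 chosen cells, 52 had 5 to 9 collagen UMIs, 62 had 10 to 49 and 7 had 50 or more.

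**Figure D1:**
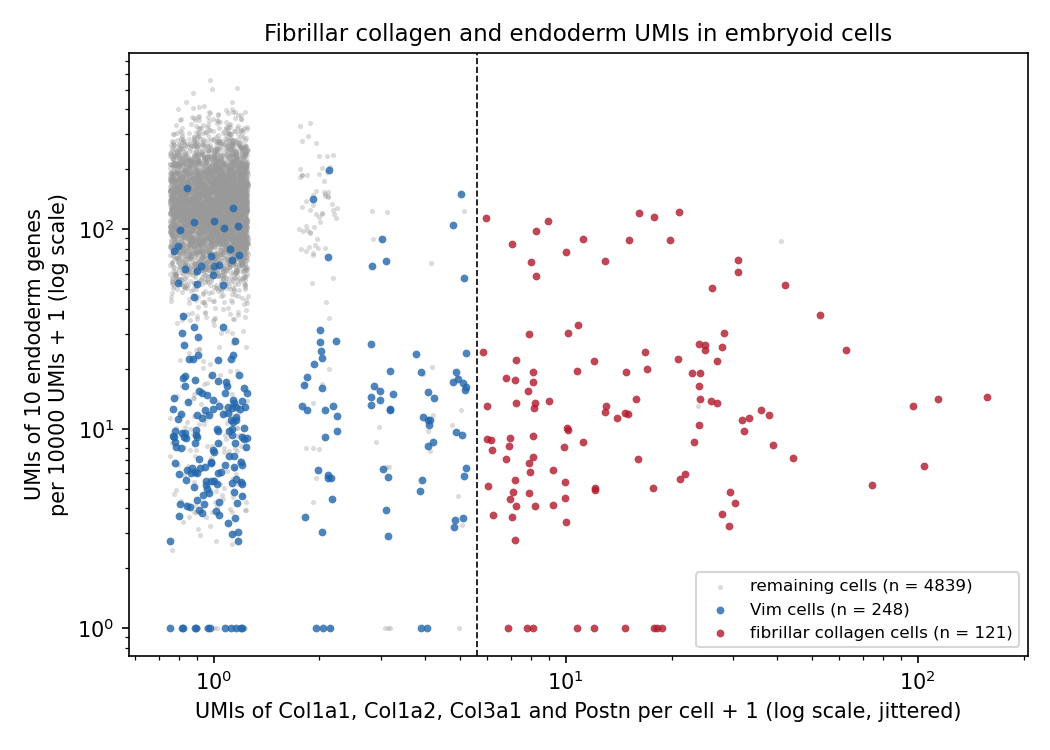
Each point is 1 of the 5208 embryoid cells, with the summed UMIs of Col1a1, Col1a2, Col3a1 and Postn plus 1 on the horizontal axis (log scale, jittered, dashed line at the rule's minimum of 5) and the UMIs of 10 endoderm genes per 10000 UMIs plus 1 on the vertical axis (log scale). Most of the 121 fibrillar collagen cells lie below the bulk of the 4839 remaining cells, with medians of 10.96 and 127 endoderm UMIs per 10000, and 14 of them overlap that bulk.

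The 4 rule genes were not carried evenly. Col3a1, on chromosome 1 (mm10, 45311538 to 45349706, plus strand), was seen in 108 of the 121 cells with 0, 7 and 45 UMIs as the lowest, median and highest count. Col1a1, on chromosome 11 (94936224 to 94953042, plus strand), was seen in 71 cells, with a median of 1 and a highest count of 74 UMIs, and the 5 cells with most of it held 44.6% of its UMIs. Col1a2, on chromosome 6 (4504814 to 4541544, plus strand), was seen in 75 cells with a median of 2 and a highest count of 46 UMIs. These counts describe cells that were chosen by the sum of the same genes. Postn, encoding the matrix protein periostin, lies on chromosome 3 (54361109 to 54391037, plus strand) and was seen in 22 cells, with 17 UMIs in the highest. All 4 genes were seen in 13 cells, and only 1 of them in 31 cells.

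As a description of the groups the rule drew, Col1a1 made up 29.8% of the UMIs of the 4 genes in the fibrillar collagen cells (interval 28.0% to 31.7%), 13.3% in the Vim cells (8.62% to 19.3%) and 14.9% in the remaining cells (10.3% to 20.6%). Col1a2 made up 21.2%, 20.2% and 38.3%.

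Markers that the rule did not use are described next. Twist1, Dlk1 and Hand1 were proposed as marks of these cells with earlier results of these data known. Their levels are therefore no independent check of the mesenchymal label. Twist1, a regulator of mesenchyme on chromosome 12 (33957671 to 33959829, plus strand), was seen in 96 of the 121 cells, with 0, 2 and 18 UMIs as lowest, median and highest. Its level was 647 CPM (583 to 717), against 251 CPM (224 to 280) in the Vim cells and 11.7 CPM (10.4 to 13.1) in the remaining cells. Twist1 was thus 1.36 log2 units above the Vim cells (interval 1.15 to 1.59) and was seen in 222 of the 4839 remaining cells. Cdh11, a cadherin of mesenchymal cells, was seen in 116 of 121 cells with 0, 5 and 23 UMIs, and stood at 1078, 755 and 9.08 CPM in the 3 groups. Vim itself was seen in 118 of the 121 cells, with 0, 8 and 60 UMIs, and 37 of them had fewer than the 5 UMIs that define the Vim cells.

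The other 2 genes proposed as marks of these cells were less uniform. Dlk1, an imprinted gene for a membrane-bound protein on chromosome 12 (109452823 to 109463336, plus strand), was seen in 77 of 121 cells, with 0, 2 and 43 UMIs. It stood at 939 CPM, against 205 CPM in the Vim cells and 19.4 CPM in the remaining cells. Hand1, a transcription factor of extraembryonic and lateral mesoderm on chromosome 11 (57828705 to 57832818, minus strand), was seen in 35 of 121 cells, with 13 UMIs in the highest. Its level was 222 CPM (185 to 264) against 7.89 CPM (3.78 to 14.5) in the Vim cells and 0.375 CPM in the remaining cells, where 9 of 4839 cells had a UMI. Hand1 therefore set the fibrillar collagen cells apart from both other groups as a sum, while most single cells had none of it.

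**Figure D2:**
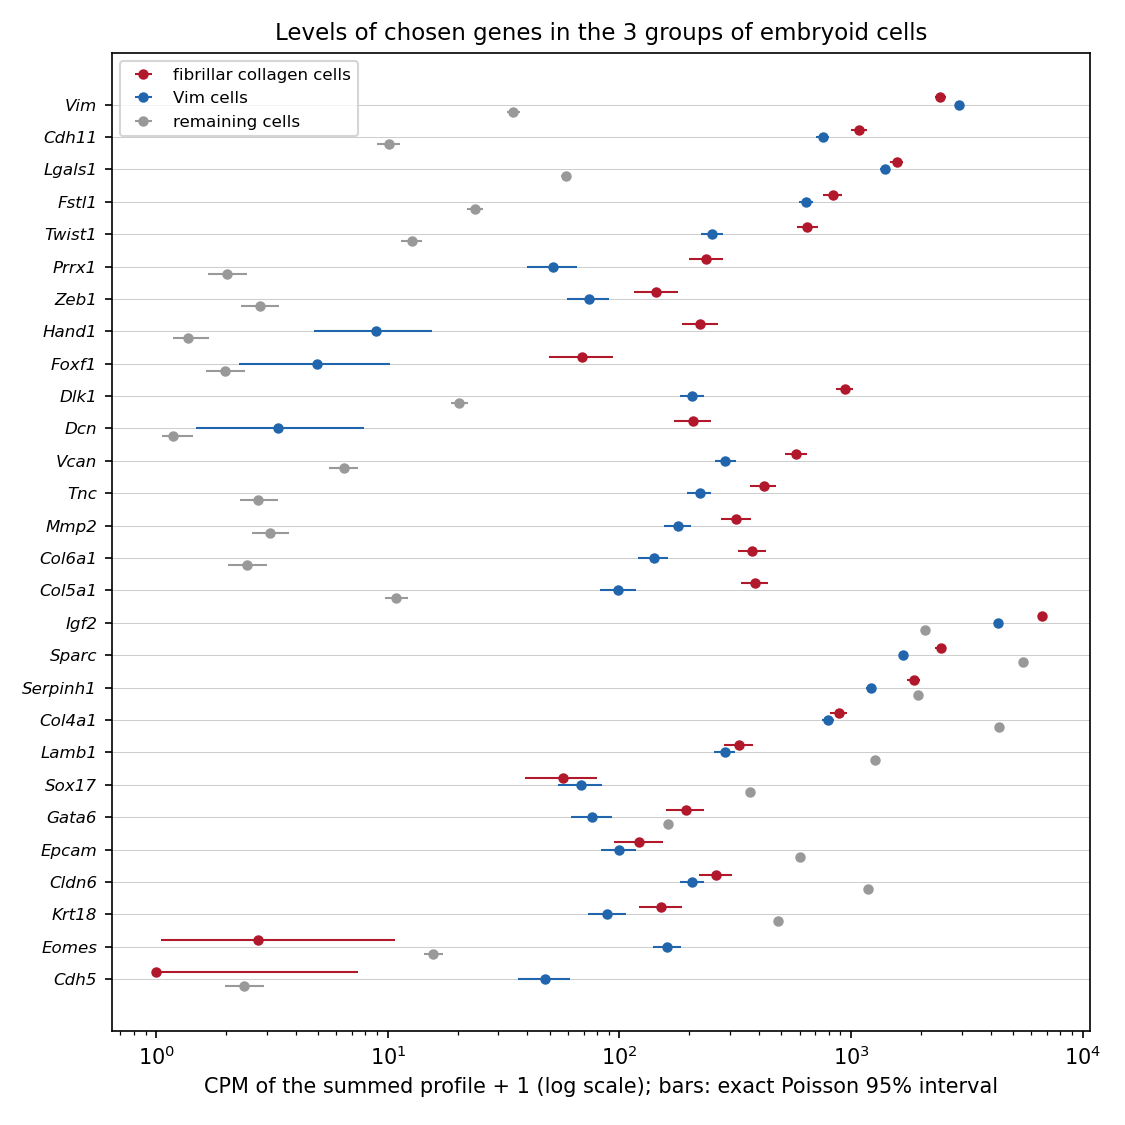
Level of 28 genes in the fibrillar collagen cells (121 cells, red), the Vim cells (248, blue) and the remaining embryoid cells (4839, grey), as CPM of the summed profile plus 1 on a log scale, with exact Poisson 95% intervals. Twist1, Prrx1, Hand1, Dlk1 and Dcn stand highest in the fibrillar collagen cells, the epithelial genes Epcam and Cldn6 highest in the remaining cells, and Eomes and Cdh5 highest in the Vim cells.

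Marker lists for other cell types gave low values for some types and high values for others. Of 8 endothelial markers, 6 had no UMI in the 121 cells, Cdh5 and Tie1 among them, and the summed level of the list was 5.25 CPM, against 132 CPM in the Vim cells. Of 12 epiblast markers 5 had no UMI, including Pou5f1 and Esrrb, and the list summed to 75.2 CPM against 285 CPM in the remaining cells. The 6 pluripotency genes of the rule are among these 12. Tdgf1, Utf1 and Trh are among the 5 without a UMI, so that the low value partly follows from the rule. The trophectoderm markers Elf5 and Krt7 had no UMI and Cdx2 had 5.25 CPM, while the list summed to 240 CPM, most of it Krt18. Fibroblast markers were high, with 15 of 18 measured genes at least 2-fold above the Vim cells and 0 below (median 1.79) and 15 of 17 above the remaining cells and 1 below (median 5.13), although Mfap5 and Fap had no UMI. Smooth muscle and myofibroblast markers summed to 2159 CPM, against 1744 CPM in the Vim cells and 867 CPM in the remaining cells, with 1 of 7 at least 2-fold above the Vim cells, Acta2, and 4 of 7 above and 1 below the remaining cells (medians 0.45 and 3.17). Neural markers summed to 103.2 CPM, against 166 and 11.4 CPM, and the 3 that were measured, Tubb3, Nes and Sox3, were all above the remaining cells (median 3.54), while Sox3 was below the Vim cells. With 11.4 CPM over the whole list in the remaining cells, a marker was measured mainly through the fibrillar collagen cells. That all 3 lay above is therefore largely set by the filter. The part of other cell types in these values was not tested. Single cells ranged from 173 to 16133 CPM in summed fibroblast markers, so that no fibrillar collagen cell lacked all of them.

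Measured against the Vim cells, the fibrillar collagen cells had 731 of 9160 genes past a 2-fold difference (7.98%), of which 468 were higher (5.11%) and 263 lower (2.87%), a gene being measured when its mean over the 2 groups was at least 10 CPM. Against the remaining cells 1996 of 9099 genes passed it (21.9%), 1150 being higher (12.6%) and 846 lower (9.3%). The median log2 ratio over all measured genes was 0.03 in the first comparison and 0.01 in the second. These are counts of ratios past a size and not of tested differences. A gene that is low in one group is measured only when it is high in the other. Counts and medians over lists of low genes therefore lean to the group where the genes are high.

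Other matrix genes were higher as well. Of 23 measured genes of a fibrillar matrix list, which leaves out the 4 rule genes, 16 were at least 2-fold higher than in the Vim cells and 0 lower, with a median log2 ratio of 1.41, and 19 of 20 were higher than in the remaining cells, with a median of 5.65. Col5a1, a chain of the collagen that nucleates fibres, stood at 383 CPM in the fibrillar collagen cells, 97.8 CPM in the Vim cells and 9.90 CPM in the remaining cells. The chains of the beaded collagen VI followed, with Col6a1 at 373, 140 and 1.46 CPM and Col6a3 at 140, 25.2 and 0.225 CPM. Dcn, the small proteoglycan decorin that binds collagen fibres, was the most distant from the Vim cells in the list, at 206 CPM against 2.37 CPM, 5.95 log2 units higher (interval 4.86 to 8.75). It was nevertheless seen in only 23 of the 121 cells, and 5 of these cells held 61.9% of its UMIs.

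Large matrix glycoproteins were shared with the Vim cells to varying degrees. Vcan, the proteoglycan versican, stood at 576 CPM against 285 CPM in the Vim cells and 5.44 CPM in the remaining cells. Tgfbi, a matrix protein induced by TGF-beta, stood at 254, 79.6 and 0.938 CPM. Fn1, fibronectin, was near the same level in the fibrillar collagen cells and the Vim cells, at 420 and 416 CPM, and at 64.9 CPM in the remaining cells. Fbln2, the matrix protein fibulin 2, went the other way, at 329 CPM against 600 CPM in the Vim cells (log2 ratio -0.87, interval -1.11 to -0.64). Sparc, a collagen-binding protein that endoderm also makes in quantity, was the single listed gene at least 2-fold below the remaining cells, at 2437 against 5535 CPM.

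The machinery that folds and trims procollagen was less distinctive. Of 19 measured processing genes 4 were at least 2-fold above the Vim cells and 0 below (median 0.57), and of 17 measured against the remaining cells 6 were higher and 1 lower (median 0.32). Serpinh1, the collagen chaperone, had a UMI in all 121 cells and stood at 1860 CPM against 1223 CPM in the Vim cells, yet at 1939 CPM in the remaining cells, which make type IV collagen. Pcolce, an enhancer of the cleavage of fibrillar procollagen, separated the groups, at 182, 96.2 and 1.73 CPM. Kdelr3, a receptor that returns proteins to the endoplasmic reticulum, was the gene below the remaining cells, at 136 against 380.1 CPM, and Plod2, a lysyl hydroxylase, came close to the same size, at 782 against 1559 CPM.

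Basement membrane genes were low relative to the remaining cells. Of 14 such genes 8 were at least 2-fold below the remaining cells and 3 above (median -1.25), whereas 0 of 14 were 2-fold apart from the Vim cells in either direction (median 0.22). Col4a1, a chain of the sheet-forming type IV collagen, stood at 882, 795 and 4330 CPM, and Lamb1, a laminin chain, at 327, 284 and 1271 CPM. The 3 that were higher than in the remaining cells were Nid1, at 331 against 37.2 CPM, Col18a1, at 194 against 10.1 CPM, and the mesenchymal laminin chain Lama4, at 38.5 against 0.600 CPM.

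Regulators of mesenchyme were higher as a group. Of 28 measured genes in a list of mesenchymal transcription factors, 14 were at least 2-fold above the Vim cells and 1 below (median 1.11), and 23 of 25 were above the remaining cells and 1 below (median 4.00). Prrx1, a homeobox gene of limb and craniofacial mesenchyme, was seen in 59 cells and stood at 236, 50.5 and 1.01 CPM. Snai1, a repressor of epithelial genes, stood at 131, 26.0 and 17.5 CPM, and its relative Snai2 at 61.2, 19.7 and 0.563 CPM. Zeb1, another such repressor, was seen in 52 cells and stood at 143, 72.5 and 1.80 CPM. The gene below the Vim cells was Meox1, a regulator of somites, at 6.997 against 26.0 CPM, and the gene below the remaining cells was Pitx1, a hindlimb factor, at 117 against 327 CPM.

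Some factors of the lateral and extraembryonic mesoderm were above the Vim cells. Foxf1, which is needed in the mesoderm of yolk sac and allantois, stood at 68.2 CPM against 3.94 CPM in the Vim cells and was seen in 24 of 121 cells. Tbx20 stood at 43.7 against 3.15 CPM and was seen in 18 cells, and Hand2, the relative of Hand1, at 99.7 against 36.3 CPM in 34 cells. The full list of extraembryonic mesoderm markers was less one-sided, with 4 of 12 measured genes above and 2 below the Vim cells (median 0.29), and 8 of 11 above and 2 below the remaining cells (median 3.90). Bmp4 and Msx2 of that list were near the level of the Vim cells, at 68.2 and 184 CPM against 63.1 and 172 CPM.

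Hox genes, which give cells a position along the body axis, were present at low levels. Of 12 measured Hox genes 7 were at least 2-fold above the Vim cells and 0 below (median 1.57), and all 8 measured against the remaining cells were above them (median 2.84). The 38 Hox genes in the data summed to 443, 246 and 89.0 CPM in the fibrillar collagen, Vim and remaining cells. At such low levels a gene is mostly measured through the group where it is high, so that these counts and medians are partly set by that filter. The median against the Vim cells was 0.30 when only cells with at least 10 collagen UMIs were kept. Hoxb9 had the most UMIs, in 28 of 121 cells, at 66.5 CPM against 70.2 CPM in the Vim cells. Hoxd13, the last gene of the HoxD cluster, was seen in 14 cells at 48.98 CPM, against 10.3 CPM in the Vim cells and 2.33 CPM in the remaining cells. Of these 14 cells 9 also had a UMI of Isl1, a factor of hindlimb and genital mesenchyme, which was seen in 20 of the 121 cells.

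Epithelial and most endodermal genes were far below the remaining cells. Of 20 measured epithelial genes 19 were at least 2-fold below the remaining cells and 0 above (median -2.25), and 0 of 18 were 2-fold apart from the Vim cells. Epcam, an epithelial adhesion molecule, stood at 121, 98.6 and 599 CPM and the tight junction gene Cldn6 at 261, 205 and 1180 CPM. Of 16 primitive endoderm markers 15 were at least 2-fold below the remaining cells (median -2.16), and against the Vim cells 3 of 15 were above, Gata6, Pdgfra and Srgn, and 0 below (median 0.17). Of 11 measured endoderm transcription factors and related genes 10 were below the remaining cells (median -2.01), and 2 were above and 2 below the Vim cells (median -0.23). Of 11 parietal endoderm genes, a list that shares Vim and Snai1 with mesenchyme, 3 were above the Vim cells and 0 below, and 4 were above and 5 below the remaining cells. Vim is among those 4, at 2425 against 33.8 CPM, which follows from how the groups were drawn. The primitive endoderm markers below the remaining cells included Sox17 at 56.0 against 365 CPM and Gata4 at 152 against 540 CPM. Gata6, the exception, stood at 192 CPM (158 to 232), against 74.9 CPM in the Vim cells (60.6 to 91.6) and 160 CPM in the remaining cells, where the interval of the log2 ratio ran from -0.02 to 0.54. It was seen in 49 of 121 fibrillar collagen cells, and its level was 195 CPM without the 14 cells of high endoderm score described next.

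These endodermal levels rested in part on few cells. A score of 10 endoderm and epithelial genes (Col4a1, Col4a2, Lama1, Lamb1, Lamc1, Dab2, Epcam, Cldn6, Sox17 and Gata4) had a median of 10.96 UMIs per 10000 in the fibrillar collagen cells, 9.60 in the Vim cells and 127 in the remaining cells. The score reached 65.2, the 10th percentile of the remaining cells, in 14 of the 121 cells (11.6%) and in 21 of the 248 Vim cells (8.47%). Those 14 cells had a median of 8087.5 UMIs, against 4145 UMIs over all 121. Their part in the results was measured by leaving them out, together with the 21 Vim cells.

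Without the 14 cells the levels of Epcam, Cldn6, Sox17 and Col4a1 came to 33.2, 66.4, 17.7 and 387 CPM, and H19, an imprinted RNA that is abundant in the remaining cells at 696 CPM, came to 4.43 CPM from 145 CPM. Epcam, Cldn6, Sox17 and Col4a1 are part of the score, so that their fall follows from how the 14 cells were picked. Epcam and Cldn6 also belong to the epithelial list. Col4a1 was still seen in 60 of the other 107 cells and Lamb1 in 49. The mesenchymal genes stayed or were higher, with Twist1 at 759 CPM, Cdh11 at 1259 CPM and Dlk1 at 1104 CPM. The median of the epithelial list against the remaining cells went from -2.25 to -3.86 and against the Vim cells from 0.14 to -0.52, a change of sign, while that of the fibrillar matrix list against the Vim cells went from 1.41 to 1.72. The mesenchymal values were therefore as large without these cells. Whether the 14 barcodes held 2 cells each was not tested, and no doublet caller was run.

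**Figure D3:**
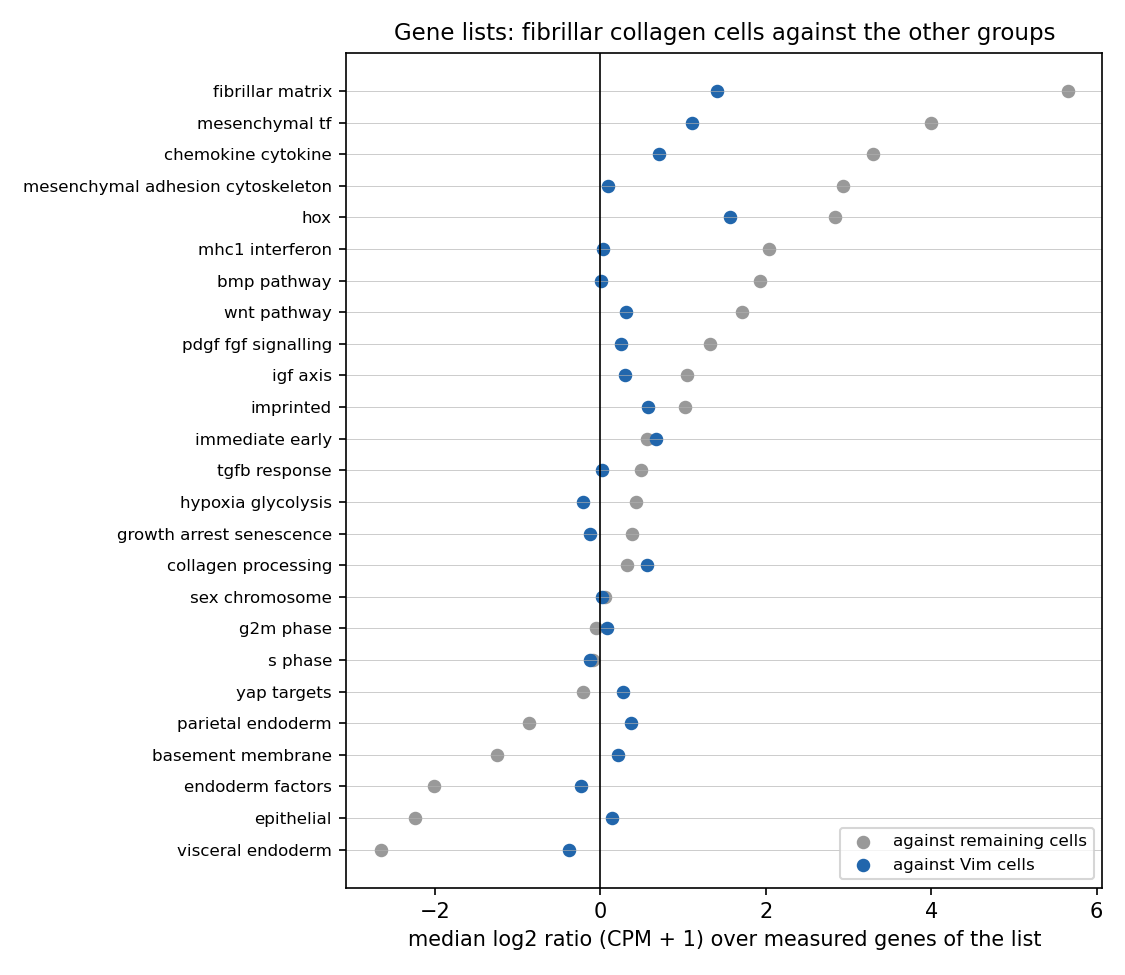
Median log2 ratio over the measured genes of each list, with the fibrillar collagen cells set against the remaining cells (grey) and against the Vim cells (blue), and the line at 0 marking equal levels. Fibrillar matrix genes have medians of 5.65 and 1.41, Hox genes 2.84 and 1.57, and epithelial genes -2.25 and 0.14.

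Genes outside all lists that differed most from the Vim cells, by a fixed rule of size among genes seen in at least 10% of cells of the higher group, are described next. Rgs5, a regulator of G protein signalling known from pericytes, stood at 64.7 against 2.37 CPM and was seen in 17 of 121 cells. Zic1, a zinc finger factor of dorsal neural tube and dermal mesoderm, stood at 96.2 against 4.73 CPM, in 19 cells. Gli1, a target of Hedgehog signalling, stood at 59.5 against 5.52 CPM and was seen in 26 of 121 cells. Frem1, a protein of the epithelial-mesenchymal border, stood at 64.7 against 6.31 CPM, in 29 cells, and Ednra, an endothelin receptor of neural crest and vascular mesenchyme, at 63.0 against 8.67 CPM, in 27 cells. The others were Smpd3, Cbln1, Ndnf, Col9a1, Hsd11b2, Isl1 and Rftn2, each seen in 13 to 23 cells. Ndnf, 3.42 log2 units above the Vim cells, turned to -0.26 when only cells with at least 10 collagen UMIs were kept.

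Other genes were higher in the Vim cells. Vrtn, a gene of vertebral development, had 0 UMIs in the 121 cells and 47.3 CPM in the Vim cells, at least 9.01-fold lower against a floor of 3 UMIs over the summed profile. Lmo2, a factor of blood and vessel precursors, stood at 10.5 against 79.6 CPM, and Gjb2, a connexin, at 1.75 against 51.3 CPM. Of 5 measured primitive streak markers 4 were at least 2-fold lower and 0 higher (median -3.02). The 10 markers of that class summed to 33.2 CPM in the fibrillar collagen cells and 301 CPM in the Vim cells. They were thus measured mostly through the Vim cells, and the count and median are partly set by that filter. Eomes, a factor of early streak, stood at 1.75 CPM with 1 UMI in all, against 159 CPM in the Vim cells, where 61 of 248 cells carried it. T, the brachyury gene, stood at 10.5 against 51.3 CPM, and Kdr, the VEGF receptor of vascular precursors, at 1.75 against 31.5 CPM. No UMI of the endothelial cadherin Cdh5 was seen, a level at least 8.86-fold below the 46.5 CPM of the Vim cells. The Vim cells are thus a mixed set for comparison, since 10 of them carried Cdh5, 15 carried T and 61 carried Eomes.

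Against the remaining cells, the largest ratios outside the lists were those of Serpinf1, Hsd11b2, Stc1, Chst2, Gap43, Itm2a, Pcdh18, Frem1, Fat4, Tmem45a, Dnm3os and Tmem132c. Serpinf1, a secreted inhibitor of vessel growth made by mesenchyme, was seen in 61 of 121 cells and stood at 261 CPM, against 94.6 CPM in the Vim cells and 1.39 CPM in the remaining cells. Itm2a, a membrane protein of cartilage and muscle precursors, was seen in 75 cells and stood at 579, 529 and 8.29 CPM. Dnm3os, the host RNA of microRNAs of developing skeleton, was seen in 20 cells and stood at 59.5, 17.3 and 0.150 CPM. The lowest ratios were those of F2, Tfeb, Smagp, Ntn4, Aqp11, Rhox6, 4930506M07Rik and Serpinb6c. Ntn4, a netrin of basement membranes, stood at 5.25 CPM against 94.4 CPM in the remaining cells.

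Secreted signals and their antagonists were next compared. Of 24 measured BMP pathway genes only 2 were at least 2-fold above the Vim cells, Hand1 and Grem1, and 1 below, Gata2 (median 0.01), while 14 of 20 were above and 2 below the remaining cells (median 1.93). Grem1, a secreted BMP antagonist, had 0 UMIs in the remaining cells and 56.0 CPM in the fibrillar collagen cells, in 7 cells, at least 497-fold higher. Id2, a direct target of BMP signalling, stood at 523, 326 and 157 CPM. Of 22 Wnt pathway genes 5 were above and 1 below the Vim cells (median 0.30), and of 21 measured against the remaining cells 12 were above and 3 below (median 1.72). Dkk2, a Wnt antagonist, stood at 68.2 against 2.37 CPM in the Vim cells and was seen in 18 of 121 cells, and Wnt5a, a ligand of elongating mesenchyme, at 187, 86.7 and 11.4 CPM. Lgr5, a receptor for R-spondins, was the gene below the Vim cells, at 13.99 against 42.6 CPM.

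Growth factor receptors and cytokines were compared as well. Of 14 measured genes of PDGF and FGF signalling 4 were at least 2-fold above the Vim cells and 0 below (median 0.25), and of 13 measured against the remaining cells 7 were above and 2 below (median 1.33). Pdgfra, a receptor that both primitive endoderm and mesenchyme carry, stood at 110 CPM, between the 54.4 CPM of the Vim cells and the 314 CPM of the remaining cells, whereas Pdgfrb, the receptor of perivascular mesenchyme, stood at 26.2, 8.67 and 0.563 CPM. Of 16 measured chemokines, cytokines and matrix proteases 6 were at least 2-fold above the Vim cells and 0 below (median 0.71), and 13 were above the remaining cells (median 3.30). Cxcl12, the stromal ligand that guides migrating cells, stood at 101, 36.3 and 2.40 CPM. Ptn, the growth factor pleiotrophin, stood at 297, 80.4 and 2.40 CPM. Mmp2, a gelatinase, was seen in 79 of 121 cells and stood at 318, 177 and 2.10 CPM.

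Imprinted growth regulators were abundant. Igf2, the fetal growth factor, was the gene with most UMIs among those listed, with 0, 13 and 153 UMIs per cell and a level of 6677 CPM (6467 to 6893), against 4301 and 2084 CPM. Over the list, 4 of 19 measured imprinted genes were at least 2-fold above and 1 below the Vim cells (median 0.57), and 10 were above and 1 below the remaining cells (median 1.03). Meg3, a noncoding RNA of the Dlk1 locus expressed from the other parental copy, stood at 625, 257 and 389 CPM, so that its ratio to the remaining cells (log2 0.68) was far smaller than that of Dlk1 (log2 5.53). Plagl1 stood at 931, 625 and 23.0 CPM. The gene below the remaining cells was H19 and the gene below the Vim cells was Asb4, at 105 against 323 CPM.

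Proliferation genes did not set the cells apart. Of 14 measured S phase genes and 16 measured G2/M genes, 0 were 2-fold apart from either group, with medians from -0.12 to 0.08. After each cell was thinned to 1000 UMIs, 22.3% of the fibrillar collagen cells had 5 or more G2/M UMIs, against 18.95% of the Vim cells and 23.5% of the remaining cells. Mki67, a marker of cycling cells, stood at 191, 182 and 156 CPM. Immediate early genes, which respond within minutes to handling, were somewhat higher, with medians of 0.68 against the Vim cells and 0.57 against the remaining cells and 2 of 12 genes past 2-fold in each comparison. Egr1 stood at 2132, 902 and 1294 CPM and Fosb at 981, 393 and 645 CPM, and the part of cell handling in other values was not tested.

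The 121 cells were not uniform, and Hand1 marked one axis of the differences within them. The split by Hand1 was chosen after its values were seen. The 35 cells with a Hand1 UMI and the 86 without one had similar medians of depth, 4211 and 4121 UMIs, and of endoderm score, 10.8 and 11.2. Postn stood at 353 CPM in the Hand1 cells and 17.8 CPM in the others, and was seen in 17 of 35 and 5 of 86 cells. As a description of 3 other genes of the rule, Col1a1 and Col1a2 stood in the Hand1 cells at 2207 and 1524 CPM against 748 and 555 CPM, and Col3a1 at 2072 against 1753 CPM. Without the 5 Slpi cells described below, Col1a1 stood at 1934 CPM in 33 Hand1 cells and 555 CPM in 83 others.

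Genes of lateral and extraembryonic mesoderm were seen with Hand1. Tbx20 was seen in 14 of 35 Hand1 cells and in 4 of 86 others, Hand2 in 18 and 16, Foxf1 in 12 and 12, Bmp4 in 15 and 16, and Dkk2 in 13 and 5. Dlk1 stood at 1882 CPM in the Hand1 cells, where 31 of 35 carried it, and at 511 CPM in the others, where 46 of 86 did. Fgf15 was seen in 10 of 35 and 3 of 86 cells, and Col5a2 stood at 252 against 58.5 CPM. Leaving out the Slpi cells, Gata6 was seen in 22 of 33 Hand1 cells, at 395 CPM, and in 25 of 83 others, at 117 CPM.

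The cells without Hand1 carried another set. Zic1 was seen in 19 of these 86 cells and in 0 of 35 Hand1 cells, which allows a share of up to 8.57% of cells with a UMI and does not limit the share of cells that express the gene. Foxc1, a factor of paraxial and head mesenchyme, was seen in 26 of 86 and 2 of 35 cells, Foxd1 in 14 and 0, and Nr2f1, a nuclear receptor of neural crest and head mesenchyme, in 19 and 1. The matrix genes Fbln2, Tnc and Col6a3 stood at 453, 544 and 183 CPM without Hand1 and at 56.0, 140 and 44.8 CPM with it. Vim was also higher without Hand1, at 2933 against 1305 CPM, and Prrx1 stood at 277 against 146 CPM. Twist1 was close to even, in 68 of 86 and 28 of 35 cells, at 595 and 762 CPM.

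The G2/M list summed to 3904 CPM in the cells with Hand1 and 2366 CPM in those without. All 16 of its genes had a log2 ratio above 0, from 0.12 to 1.51 (median 0.71), and 5 were at least 2-fold higher, whereas over all 9140 genes measured in this split 48.3% lay above 0 and 9.10% were at least 2-fold higher (median -0.03). The S phase list went the other way, with 2 of 14 genes above 0 (median -0.30) and a sum of 1311 against 1620.5 CPM. The G2/M gene Ccnb1 stood at 336 against 117 CPM and Top2a at 605 against 557 CPM. Genes of the same phase are counted in the same cells, so that the 16 ratios are not separate observations and may rest on few cells. The list was not computed without the Slpi cells described below, 2 of which carried Hand1. In the 5 Slpi cells Ccnb1 had 15 UMIs and Ube2c 26, each gene being seen in 2 of them. A second grouping was seen among the cells without Hand1, where Nkx6-1, a homeobox gene, was seen in 16 of the 121 cells and in 0 cells with Hand1, and 8 of those 16 also carried Zic1. The 52 cells with a UMI of a Hox gene of paralogue groups 9 to 13 were spread over both sides, with 14 of them carrying Hand1. Isl1 was seen in 16 of these 52 cells and in 4 of the other 69.

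**Figure D4:**
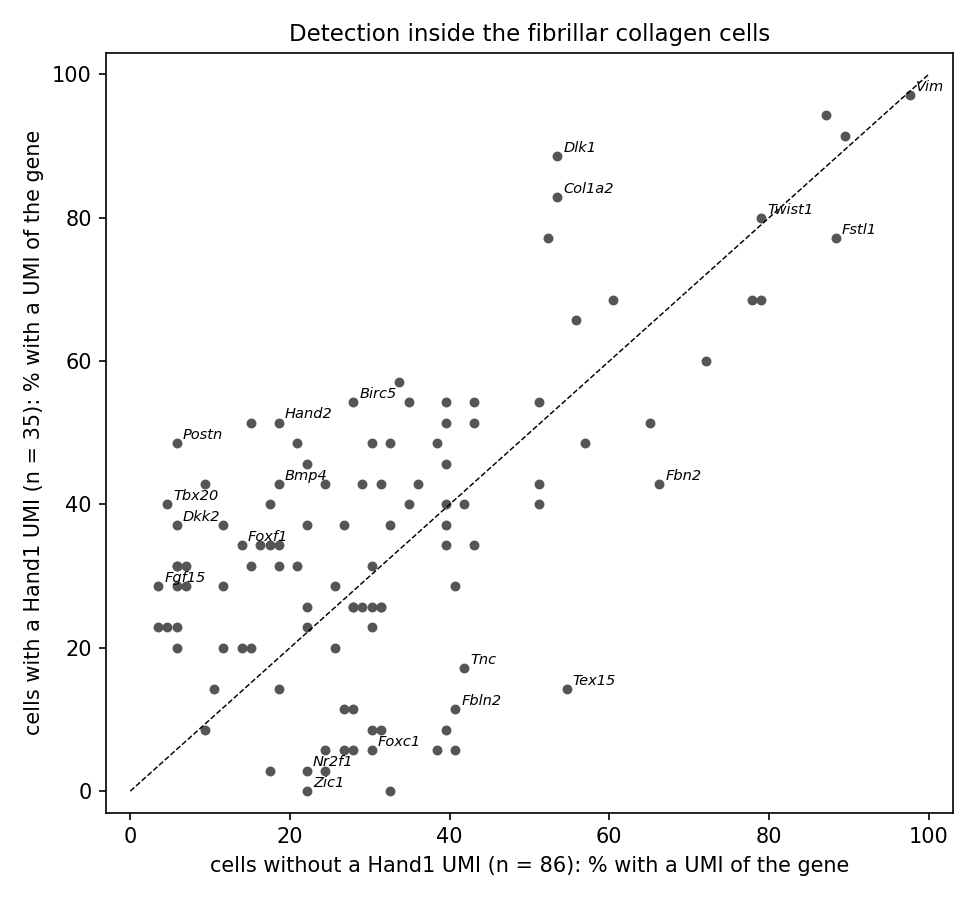
Share of cells with a UMI of each gene among the 35 fibrillar collagen cells with a Hand1 UMI (vertical axis, %) and the 86 without one (horizontal axis, %), for listed genes and those with the largest and smallest ratios at a mean of at least 40 CPM; points on the dashed line are equally frequent. Postn, Tbx20 and Dkk2 lie far above the line, Zic1, Foxc1 and Fbln2 far below it, and Twist1 and Vim on it.

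A set of 5 cells stood apart by Slpi, a secreted protease inhibitor, and were noticed after the values were seen. Slpi had from 80 to 501 UMIs in each of these 5 cells, 0 in the other 116 fibrillar collagen cells, and at most 5 in any cell outside the group, where 10 cells had any. All 5 cells lacked Col3a1, with 0 of 35462 UMIs, which allows a level of up to 84.6 CPM, against 1975 CPM in the other 116 cells. They held 24.9% of all Col1a1 UMIs of the group, at 4822 against 964 CPM, and Sparc stood at 8573 against 2031 CPM. Col1a1 and Col3a1 are rule genes. In these 5 cells Postn had 0 UMIs and Col1a2 had 17, all in 1 cell. That cells without Col3a1 carried Col1a1 is therefore largely set by the rule.

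Other genes of these 5 cells also differed from the rest of the group. Wif1, a secreted Wnt inhibitor, had 91 UMIs in the 5 cells and 8 in the other 116, and Serpinb2 had 36 and 0. Aldh1a3, an enzyme that makes retinoic acid, had 131 UMIs in 3 of the 5 cells and 0 in the other 116. Dcn had 50 of its 118 UMIs in 3 of the 5 cells. One of the 5 cells held all 63 UMIs of Ibsp, a sialoprotein of mineralised bone matrix, together with an endoderm score of 69.6. Twist1 had 1 UMI in these cells, Vim stood at 733 CPM, and Marcks, Peg10, Nkd1, Cdkn1c and Ndn had 0 UMIs, against 914, 630, 360, 280 and 235 CPM in the other 116 cells. Without the 5 cells Twist1, Dcn and Col1a1 stood at 688, 127 and 964 CPM in the group.

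**Figure D5:**
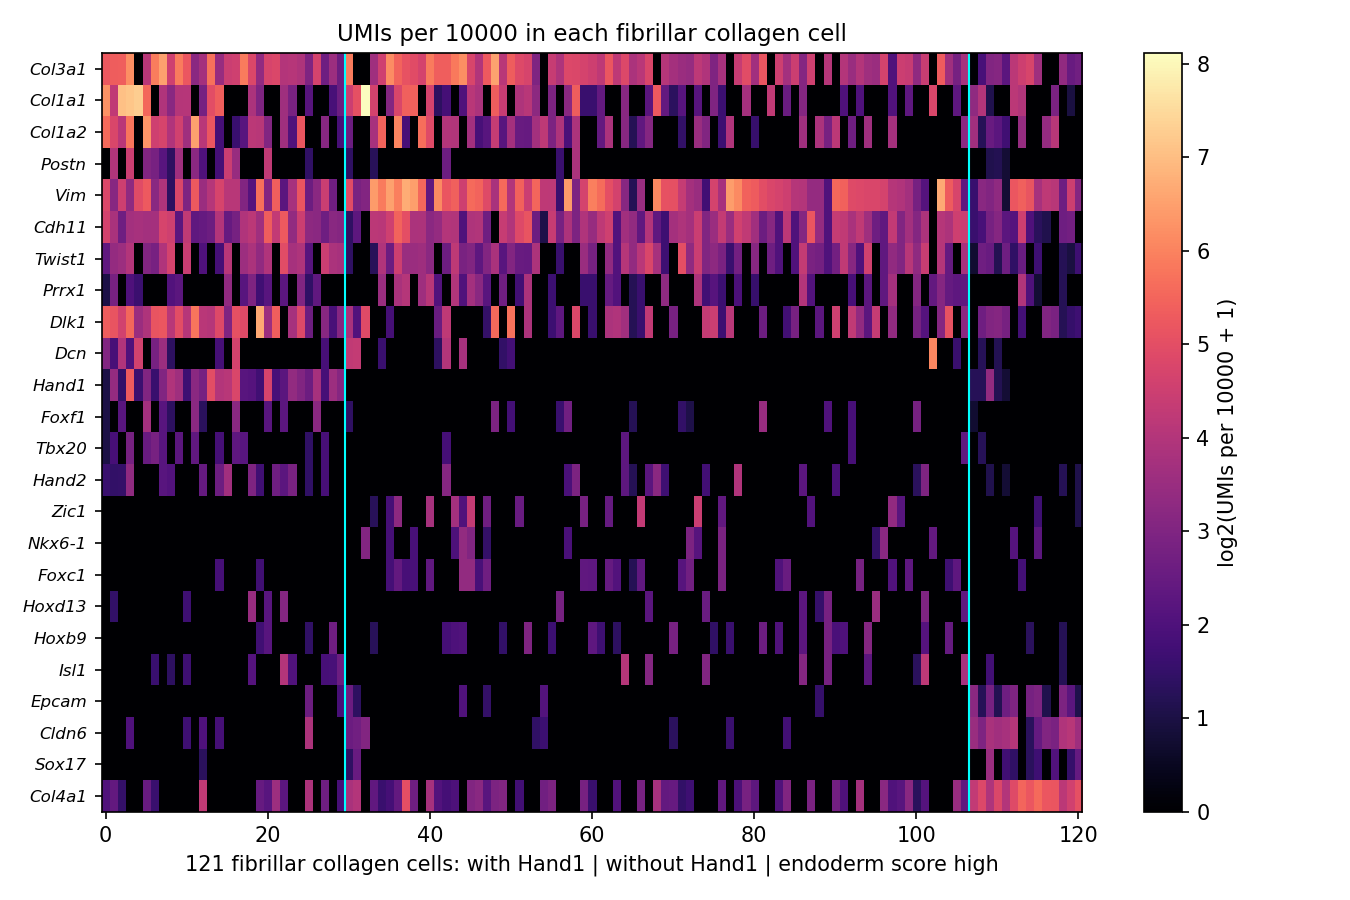
Each column is 1 of the 121 fibrillar collagen cells and each row a gene, coloured by log2 of UMIs per 10000 plus 1, with cyan lines parting cells with Hand1, cells without Hand1 and the 14 cells of high endoderm score. Cdh11 and Vim are seen across nearly all columns, Zic1 and Nkx6-1 are absent from the columns on the left with Hand1, and Epcam, Cldn6 and Col4a1 are bright in the columns on the right.

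The amount of collagen in a cell went with some of these genes and not with others. Hand1 was seen in 8 of the 52 cells with 5 to 9 collagen UMIs, in 21 of the 62 with 10 to 49 and in 6 of the 7 with 50 or more, and Dcn in 3, 14 and 6 of them. The classes had medians of 3619.5, 4341 and 5481 UMIs. After thinning to 1000 UMIs, Hand1 was seen in 5.77%, 19.4% and 28.6% and Dcn in 1.92%, 9.68% and 57.1%. Thinning evens the depth at which these genes were counted. The classes were still set by the collagen sum before thinning, which itself depends on depth. Twist1 was seen at similar shares, in 48.1%, 45.2% and 42.9% of the thinned cells. The top class held 7 cells, so that its shares rest on few of them. A Slpi cell with 73 collagen UMIs, 11 Dcn UMIs and 1 Hand1 UMI was among them.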

How the data were processed

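UMI counts per gene and barcode, raw whole numbers, were deposited by the authors for both libraries. Per the submitters' processing notes, the tools were STAR 2.7.1a, featureCounts 1.6.4 of Subread, UMI-tools 1.0.1 and bcl2fastq 2.19.1.403, with mm10. For settings, annotation and cell calling, the state is: not given in the sources used here. Barcodes were kept with at least 1000 UMIs, at least 500 genes and 1 to 25% mitochondrial UMIs. No doublets were removed. Counts were summed over the cells of a group and scaled to CPM. Genes outside the lists were named by size: the 12 largest and 8 smallest log2 ratios per comparison. Gene positions are from GENCODE M21. Intervals are exact at 95%. The members, the 36 gene lists and marker classes (558 of 577 genes matched by symbol) and the alternatives were chosen with earlier results of these data known, and the splits by Hand1, Slpi, Hox genes and endoderm score after values were seen. The work used pandas 2.3.3, scipy 1.17.1, numpy 2.4.6 and matplotlib 3.10.9 under Python 3.11.15. Only the ratios of summed profiles and their intervals were tested on simulated data, which held counting error and no spread between cells.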

Additional observations from a re-analysis of the deposited data

How the results depend on the processing

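Of 19 alternative settings, 3 were added after seeing the data. These were leaving out the high endoderm score cells among the fibrillar collagen and Vim cells, leaving out the 5 Slpi cells, and Vim cells with 0 collagen UMIs. List medians and gene ratios were computed in 15 of the 19, while the other 4 gave counts only. The 29 list medians of at least 2-fold, among 66, kept their sign wherever a setting gave a value. Some of these medians are of classes that hold rule genes, so that the rule largely set their sign. Such classes are the epiblast markers and the class of Col3a1, Col1a1, Col1a2, Postn, Hand1, Twist1 and Dlk1. With a mean of at least 30 CPM only 58 medians could be had. The 121 cells became 69 with at least 10 collagen UMIs, 72 with at least 2000 genes per cell and 41 after thinning each cell to 1000 UMIs. With at least 10 collagen UMIs, 443 genes were at least 2-fold below the Vim cells in place of 263. With 10 CPM added, 315 genes were 2-fold apart from the Vim cells (225 higher, 90 lower) in place of 731, and 556 were below the remaining cells in place of 846. With a mean of at least 30 CPM these were 236 (168 higher, 68 lower) against the Vim cells and 1019 (556 higher, 463 lower) against the remaining cells, since fewer genes were tested. With no filter on low genes they were 3492 (1876 higher, 1616 lower) and 5225 (3061 higher, 2164 lower).

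Of 80 gene ratios of at least 2-fold, among 92, 3 changed sign. Ndnf against the Vim cells came to -0.26 with at least 10 collagen UMIs, Ntn4 against the Vim cells to 0.23 without the high endoderm score cells, and Fut9 against the remaining cells to -0.51 without the Slpi cells; the cause was not tested. Most of the genes followed were named by the size of their ratio, which favours a kept sign. Sizes were less stable. With 10 CPM added, 36 of the 92 gene ratios shifted by more than their counting intervals allowed. In that setting 14 of the 66 list medians shifted past a fixed size. The fibrillar matrix median against the remaining cells came to 3.76 in place of 5.65. The median of the Hox list against the Vim cells was 0.30 with at least 10 collagen UMIs in place of 1.57. No paired analysis was possible because each group is 1 library and the labels pair no samples. Depth limits the low genes: Meox1, at 6.997 CPM, rests on 4 cells of the 121.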

Other observations

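Transcripts of the Y-linked genes Ddx3y, Eif2s3y, Uty and Kdm5d were seen in 20 of the 121 fibrillar collagen cells (16.5%, exact interval 10.4% to 24.4%), in 72 of 248 Vim cells (29.0%), in 515 of 4839 remaining cells (10.6%) and in 41 of the 115 embryoid cells with a pluripotency sum of 5 or more (35.7%). After thinning to 1000 UMIs the shares were 6.61%, 6.85%, 2.67% and 9.57%. Xist, the RNA of the inactive X chromosome, had 0 UMIs in the fibrillar collagen cells, 1 in the Vim cells and 15 in the remaining cells. Its near absence was thus not particular to the fibrillar collagen cells. The labels give the sex of neither line, and the line of each cell was not assigned.

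Genes of antigen presentation and interferon-induced membrane proteins were above the remaining cells in 9 of 14 measured cases and below in 1 (median 2.04), with a median of 0.03 against the Vim cells. Ifitm3 stood at 740 CPM, against 726 CPM in the Vim cells and 23.2 CPM in the remaining cells, and H2-K1, the gene below, at 177 against 424 CPM in the remaining cells. Hmga2, a chromatin protein of embryonic cells, was seen in 113 of 121 cells, at 1636, 1102 and 49.1 CPM in the fibrillar collagen, Vim and remaining cells.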
